A study of Mus musculus with 3 samples.

Results

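Short CDR3s are the TCR beta clonotypes whose CDR3, the loop of the receptor chain that lies over the peptide, was 8 to 11 amino acid residues long. They were chosen from the deposited clonotype tables as rows with TRBV and TRBJ genes and a CDR3 that reads through without a frame break or stop. This gave 8334 rows of 156729 in-frame TRB rows, with 2080 of 41301 among CD4, 4597 of 77240 among CD8 and 1657 of 38188 among DN T cells. A sequence found in several libraries is a row in each, and the members held 7628 distinct combinations of nucleotide CDR3, V gene and J gene. The comparison set was the 148286 in-frame TRB rows of 12 or more residues, called the other lengths. The 109 rows of 7 or fewer residues belonged to neither.

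The cells came from the spleen of 1 MRL.lpr mouse at 16 weeks of age. MRL.lpr is a lupus-prone strain whose lpr allele disrupts Fas, and all 3 subsets carry it, so no library comes from an animal without it. CD4, CD8 and DN T cells (double negative, lacking both coreceptors) were sorted by flow cytometry, 1000000 cells per subset, and each subset gave 1 mRNA library. The tables hold no mRNA of CD4 or CD8, so the subset labels could not be checked against these markers. With 1 library per subset, every test below compares libraries and not conditions. The in-frame TRB reads numbered 126738 among CD4, 145225 among CD8 and 185135 among DN T cells, and the sources used here name no molecular identifiers, so 95% intervals (Wilson for shares) cover counting error only.

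The beta chain CDR3 is made when a V, a D and a J gene are cut and joined in the thymus. Nucleases trim the cut ends and terminal deoxynucleotidyl transferase adds bases between them that no gene encodes. A short loop therefore holds fewer bases from the genes, fewer bases between them, or both, and sequences with few or no bases between V and J are the ones most easily made again in another cell.

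The sequences below are from the largest short clonotypes shared by DN and CD8 T cells, followed by the largest of CD4 T cells and a large clonotype of CD8 T cells that had no read in DN T cells. They show how the loops were built and which libraries held them. Each is written 5′ to 3′ from the codon of the first residue to that of the last, and the capitals mark the bases between the end of the V gene and the start of the J gene as rebuilt from the longer CDR3s of the same tables.
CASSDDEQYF: tgtgccagcagtgatgatgaacagtacttc
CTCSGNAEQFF: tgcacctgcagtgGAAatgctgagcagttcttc
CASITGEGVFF: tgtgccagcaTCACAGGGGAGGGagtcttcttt
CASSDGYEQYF: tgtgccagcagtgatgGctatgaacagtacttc
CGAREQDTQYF: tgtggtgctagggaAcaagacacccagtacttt
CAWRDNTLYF: tgtgcctggagGGACaacaccttgtacttt
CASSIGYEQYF: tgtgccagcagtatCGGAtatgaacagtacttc
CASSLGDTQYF: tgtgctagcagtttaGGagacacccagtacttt

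The first of these, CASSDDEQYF (TRBV13-1 and TRBJ2-7), had no base between the V and J ends. It held 647 reads in DN, 135 in CD8 and 20 in CD4 T cells. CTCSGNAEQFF (TRBV1 and TRBJ2-1), with 3 bases between the ends, held 592, 111 and 15 reads in DN, CD8 and CD4 T cells. They ranked 1 and 2 among the short clonotypes of DN T cells and of CD8 T cells. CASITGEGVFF (TRBV19, TRBD1 and TRBJ1-1) had 13 bases between the ends, more than the others printed, and held 352, 59 and 11 reads. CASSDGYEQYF (TRBV13-1 and TRBJ2-7) held 207 reads in DN, 34 in CD8 and none in CD4 T cells.

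The largest short clonotypes of CD4 T cells were others. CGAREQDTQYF (TRBV20 and TRBJ2-5) held 124 reads among CD4, 2 among CD8 and 1 among DN T cells, with a single base between its ends. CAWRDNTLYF (TRBV31 and TRBJ2-4) held 80, 1 and 1, and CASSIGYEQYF (TRBV19 and TRBJ2-7) held 79, 2 and none. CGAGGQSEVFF (TRBV20 and TRBJ1-1) held 77 reads in CD4 and 1 in DN T cells, and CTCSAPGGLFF (TRBV1 and TRBJ1-1) held 68 and 3, both with none in CD8 T cells and with TRBD1 listed. The largest CD4 clonotype of 9 residues was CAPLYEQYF (TRBV19 and TRBJ2-7), with 21 reads and 1 in CD8 T cells, and that of 8 residues was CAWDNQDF (TRBV31 and TRBJ2-5), with 16 reads and 6 in DN T cells. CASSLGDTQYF (TRBV29 and TRBJ2-5), the fourth largest short clonotype of CD8 T cells, held 61 reads there, 1 in CD4 and none in DN T cells, where a count of 0 allows up to 3 reads.

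Short CDR3s were most common in CD8 and least common in DN T cells, by clonotypes and by reads. They made up 5.95% of in-frame TRB clonotypes in CD8 (5.79 to 6.12%), 5.04% in CD4 (4.83 to 5.25%) and 4.34% in DN T cells (4.14 to 4.55%). The share in DN was 0.729 times that in CD8 T cells (0.690 to 0.770, two-sided Fisher's exact test, Benjamini-Hochberg adjusted p = 1.47e-30 over the 3 pairs of libraries). It was 0.862 times that in CD4 T cells (0.809 to 0.918, adjusted p = 3.65e-06 in the same exact test), and the share in CD8 was 1.18 times that in CD4 T cells (1.12 to 1.24, adjusted p = 8.06e-11). Reads gave the same order, with 9135 reads or 6.29% in CD8, 6132 or 4.84% in CD4 and 8021 or 4.33% in DN T cells. At an equal depth of 126738 reads the expected shares of clonotypes were 5.99%, 5.04% and 4.34%.

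Most members were at the upper limit of 11 residues. Clonotypes of 11 residues numbered 1580 among CD4, 3434 among CD8 and 1241 among DN T cells, and those of 12 residues, just outside the set, numbered 4400, 7767 and 2974. Clonotypes of 10 residues numbered 376, 882 and 315, those of 9 residues 90, 191 and 72, and those of 8 residues 34, 90 and 29. By clonotypes, the DN share over the CD8 share lay between 0.652 and 0.762 at each of the 4 lengths and was 0.774 at 12 residues. The CD8 share over the CD4 share was above 1 at each of the 4 lengths and 0.944 at 12 residues. The DN share over the CD4 share lay between 0.849 and 0.922 at the 4 lengths and was lower, 0.731, at 12 residues. The reads departed from this at 9 residues, where DN T cells had 753 reads and a share 1.53 times that of CD8 T cells. Few clonotypes carried these reads, with a mean of 10.5 and a median of 1 read per clonotype. Over 8 to 10 residues without the 5 largest short clonotypes of each library, the DN share of reads was 0.532 times the CD8 share. Over 8 to 10 residues, the DN share was 0.900 times the CD4 share by clonotypes (Fisher's exact test, adjusted p = 0.111) and 1.14 times by reads, or 0.683 times by reads without the 5 largest short clonotypes of each library.

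**Figure D1:**
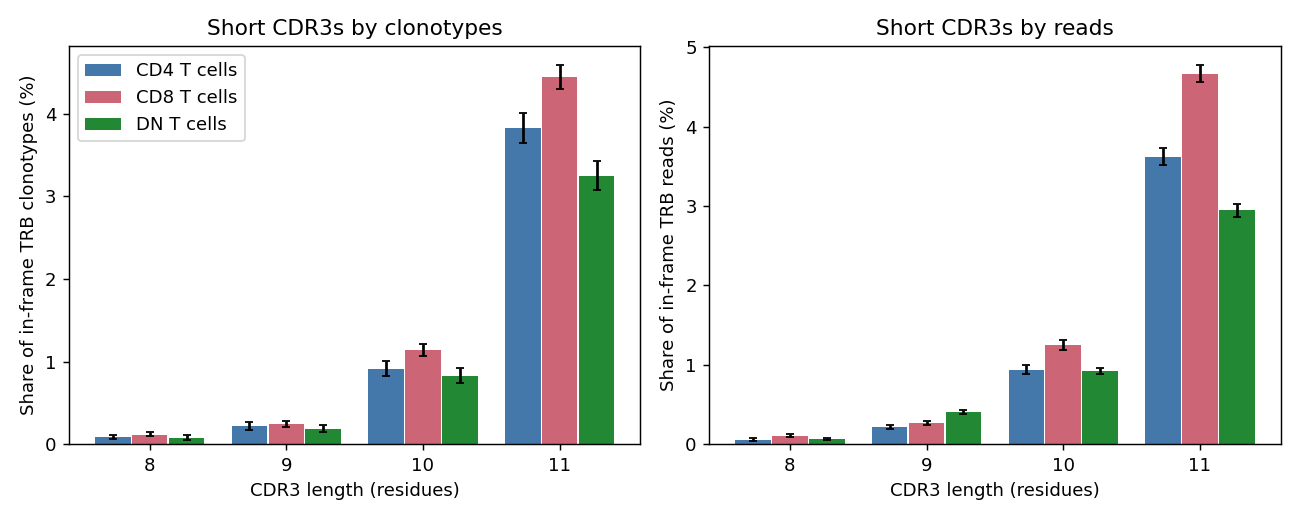
Share of in-frame TRB clonotypes (left) and reads (right), in percent, at each CDR3 length from 8 to 11 residues in CD4, CD8 and DN T cells, with 95% Wilson intervals of counting error. CD8 T cells have the tallest bar at each length by clonotypes, and DN T cells have it by reads at 9 residues.

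TRBJ1-1 and TRBJ2-7 together carried most of the short CDR3s in every library. TRBJ1-1 was used by 19.9% of short clonotypes among CD4, 17.5% among CD8 and 22.3% among DN T cells, against 9.45%, 8.07% and 8.18% of the other lengths. TRBJ2-7 was used by 34.7%, 38.2% and 40.5%, against 16.3%, 19.9% and 22.7%. These were the 2 genes with a higher share in short CDR3s, of 12 tested (16.7% in each library), and each passed the test in all 3 libraries (largest adjusted p = 1.24e-43, Fisher's exact test on clonotypes). Lower shares passed in 9 of 12 genes (75%) among CD4, 8 (66.7%) among CD8 and 9 (75%) among DN T cells, and 8 genes were lower in all 3. The lowest were TRBJ2-2, at 0.297, 0.354 and 0.392 times its share of the other lengths in CD4, CD8 and DN T cells, TRBJ2-3 at 0.394, 0.356 and 0.349, and TRBJ1-6 at 0.419, 0.433 and 0.394. By reads TRBJ2-2 stood at 0.577 times in CD4 and 0.261 times in DN T cells, TRBJ2-3 at 0.110 times and TRBJ1-6 at 0.213 times in DN T cells.

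The 2 J genes with a higher share have short ends of their own inside the loop. Counted from the tables, the J end gives 19 bases of CDR3 in TRBJ2-7 and 20 in TRBJ1-1, and up to 25 in TRBJ1-6. Over the 12 genes, the number of bases and the percentage of the gene's clonotypes that were short had a Spearman rho of -0.67 among CD4, -0.77 among CD8 and -0.59 among DN T cells, given as a description because the genes share libraries. TRBJ1-2, also with 20 bases, was not among the genes with a higher share. Over the 14 most used V genes the same measure was -0.18, -0.21 and -0.27.

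**Figure D2:**
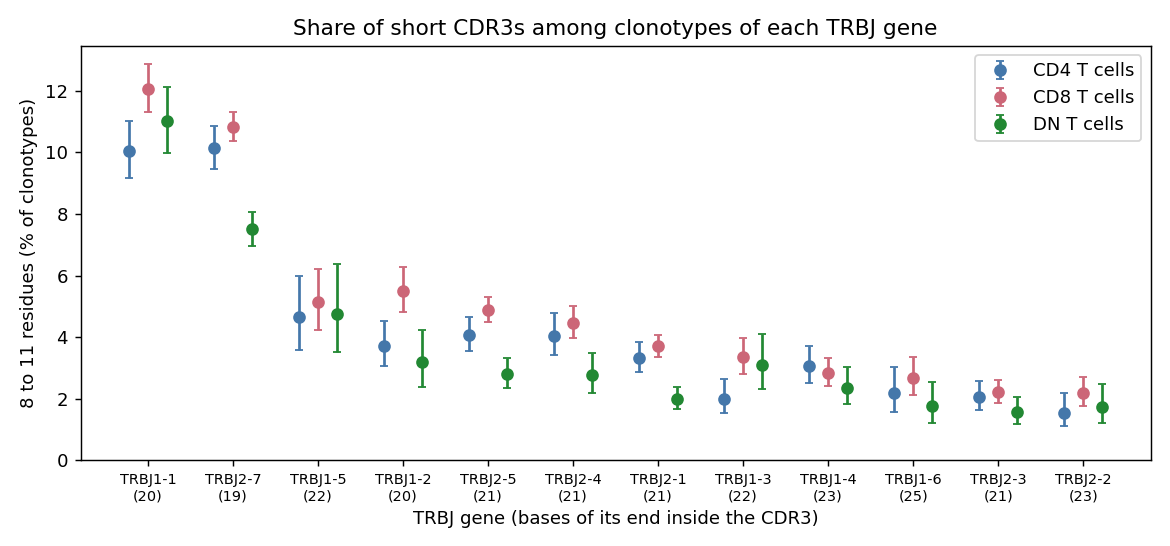
Percentage of the clonotypes of each TRBJ gene that had 8 to 11 residues, in CD4, CD8 and DN T cells, with 95% Wilson intervals and the bases of the J end inside the CDR3 in parentheses. TRBJ1-1 and TRBJ2-7 lie above the others in all 3 libraries, between 7.50 and 12.1%.

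Among the 14 V genes with at least 200 clonotypes in every library, TRBV20, TRBV29 and TRBV31 had the highest share in short CDR3s relative to the other lengths and TRBV2, TRBV5 and TRBV1 the lowest. TRBV20 was used by 17.9% of short clonotypes among CD4, 6.94% among CD8 and 3.74% among DN T cells, 1.92, 2.55 and 2.19 times its share of the other lengths. TRBV29 stood at 2.60, 1.42 and 1.65 times and TRBV31 at 1.93, 1.28 and 1.61 times. Among clonotypes with at least 2 reads TRBV29 stood at 0.989 times in CD8 T cells and TRBV1 at 1.10 times in CD4 T cells. In contrast, TRBV5 stood at 0.265, 0.423 and 0.363 times and TRBV2 at 0.474, 0.250 and 0.323 times. TRBV1 was lower in CD8 (0.394 times) and DN T cells (0.279 times, adjusted p = 9.36e-35, Fisher's exact test), whereas in CD4 T cells its ratio of 0.948 did not pass (adjusted p = 0.628). By reads TRBV1 stood at 0.794 times in DN T cells, where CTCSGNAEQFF alone held 592 reads, and at 1.23 times in CD4 T cells. Of the V genes tested, 7 of 21 (33.3%) were higher and 6 (28.6%) lower in CD4, 10 of 23 (43.5%) and 7 (30.4%) in CD8, and 10 of 19 (52.6%) and 4 (21.1%) in DN T cells. In all 3 libraries TRBV15, TRBV16, TRBV20, TRBV29, TRBV30 and TRBV31 were higher and TRBV2 and TRBV5 lower. Among clonotypes with at least 2 reads, further ratios of the highest and lowest ranked genes no longer passed. They were TRBV31 in CD8 (1.10 times, adjusted p = 0.233, Fisher's exact test), TRBV29 in DN (1.07 times, 0.805) and TRBV2 in DN T cells (0.311 times, 0.0631). At that setting 4 V genes among CD4, 5 among CD8 and 3 among DN T cells were higher, against 7, 10 and 10 above. TRBV15 rested on 9, 15 and 7 short clonotypes among CD4, CD8 and DN T cells.

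The lower share of short CDR3s in DN than in CD8 T cells was found within J and V genes as well. This comparison was chosen after the values were seen. Within each of the 12 TRBJ genes the percentage of short clonotypes was lower in DN than in CD8 T cells, and 5 of them (41.7%) passed the test. TRBJ2-7 had 7.50% in DN against 10.8% in CD8 T cells (adjusted p = 1.01e-16, Fisher's exact test) and TRBJ2-5 had 2.80% against 4.89% (adjusted p = 2.51e-08). In 13 of the 14 V genes the value was lower, and 8 (57.1%) passed. The exception was TRBV26, at 6.44% in DN and 5.97% in CD8 T cells, which did not pass. Against CD4 T cells the picture was mixed, with 4 J genes (33.3%) and 3 V genes (21.4%) lower in DN and TRBV13-1 (7.14%) higher, at 5.29% against 3.70% (adjusted p = 1.16e-04, Fisher's exact test). CD8 against CD4 T cells gave 6 V genes (42.9%) with a higher and 3 (21.4%) with a lower percentage, and 3 J genes (25%) with a higher one. TRBV1 had the lowest ratio, 0.261 between DN and CD4 T cells, with 4.79% of its clonotypes short among CD4, 2.43% among CD8 and 1.25% among DN T cells (DN against CD4 T cells, adjusted p = 8.77e-18, Fisher's exact test).

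The short loops held fewer bases than the other lengths at the V end, in the middle and at the J end. Bases that matched the V end averaged 11.8 among CD4, 12.1 among CD8 and 12.1 among DN T cells, against 13.4, 13.6 and 13.7 in the other lengths. Bases that matched the J end averaged 14.6, 14.4 and 14.1, against 18.2, 18.2 and 18.1. The bases between the ends averaged 5.63, 5.46 and 5.82, against 10.7, 10.5 and 11.3. No base was left between the matched V and J ends, as in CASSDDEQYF above, in 5.05% of short clonotypes among CD4, 6.03% among CD8 and 5.01% among DN T cells. The other lengths stood at 0.138%, 0.161% and 0.126%. Whether a D gene took part in such sequences was not tested. These means follow partly from the length itself, so no test is given.

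**Figure D3:**
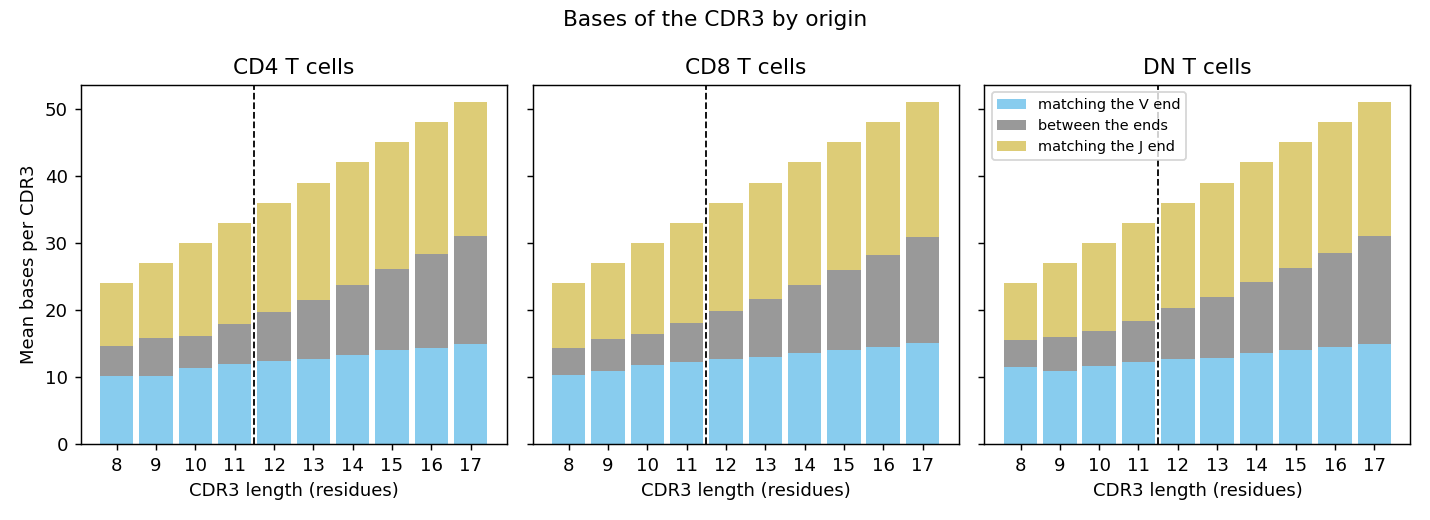
Mean bases per CDR3 that matched the V end, lay between the ends, or matched the J end, at each CDR3 length from 8 to 17 residues in CD4, CD8 and DN T cells, with a dashed line between 11 and 12 residues. All 3 segments are smaller on the left of the line.

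A D gene was listed for a minority of the short clonotypes. None was listed in 67.6% of them among CD4, 64.3% among CD8 and 64.6% among DN T cells, against 24.3%, 23.8% and 21.4% of the other lengths, with odds ratios of 6.51, 5.78 and 6.69 (Fisher's exact test, adjusted p of 4.20e-295 in DN T cells and at the lower limit of 1e-300 in CD4 and CD8 T cells). TRBD2 was listed in 8.56%, 9.05% and 9.29% of short clonotypes against 29.9%, 33.5% and 41.1% of the other lengths, and TRBD1 in 23.8%, 26.6% and 26.1% against 45.8%, 42.7% and 37.5%. The lack of D went with the number of bases between the ends. With 3 or fewer bases no short clonotype had a D gene. Such junctions made up 31.1% of short clonotypes among CD4, 31.3% among CD8 and 28.1% among DN T cells, against 2.63%, 2.76% and 1.85% of the other lengths. A short loop leaves less room between the ends, so the odds ratios and p-values above follow partly from the length itself. With 4 to 6 bases 78.6%, 70.3% and 75.7% of short clonotypes had none, against 75.1%, 71.8% and 76.0% of the other lengths with as many bases. Compared within the same number of bases, the Mantel-Haenszel odds ratio, chosen after the values were seen, was 1.10 in CD4 (0.966 to 1.26), 0.845 in CD8 (0.772 to 0.924) and 0.965 in DN T cells (0.834 to 1.12). This pooled value covers strata that differ. With 10 to 12 bases 16.8%, 16.4% and 14.5% of short clonotypes had no D gene, against 9.24%, 9.06% and 10.8% of the other lengths, and with 13 or more bases 29.9%, 27.6% and 32.5%, against 4.70%, 3.80% and 3.90%. These longer junctions were few among short CDR3s, with 97, 174 and 83 clonotypes of 13 or more bases.

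In the interior of the loop, without the first and last 3 residues, acidic residues made up 23.2% among CD4, 24.0% among CD8 and 24.4% among DN T cells, against 16.6%, 17.4% and 18.7% in the other lengths. Glutamate accounted for most of this, with 15.4%, 15.3% and 16.5% against 8.59%, 8.85% and 9.32%. It sat at the fourth residue from the end, as in the EQYF ending that TRBJ2-7 encodes, in 56.2%, 56.5% and 61.9% of short clonotypes and in 38.1%, 41.95% and 46.9% of the other lengths. Of these, 86.5%, 85.5% and 88.8% of the short and 66.6%, 65.9% and 64.97% of the others used TRBJ1-1 or TRBJ2-7. That position held 77.9%, 79.1% and 80.6% of the interior glutamates of short clonotypes, against 54.9%, 58.3% and 60.1% in the other lengths. The interior of a short loop has fewer residues, so a fixed position weighs more in its shares. The higher shares of glutamate and of acidic residues therefore follow partly from the length itself. Glycine and tryptophan, which D genes can encode, had lower shares. Glycine stood at 14.8%, 16.0% and 16.1% against 18.4%, 18.04% and 17.3%, and tryptophan at 0.903%, 0.811% and 1.10% against 1.64%, 2.07% and 3.62%. Other residues were lower too. The amides, asparagine and glutamine, made up 8.82%, 7.22% and 6.28% against 12.4%, 10.9% and 9.68%. Alanine stood at 5.15%, 4.99% and 4.83% against 6.97%, 7.17% and 7.37%. Arginine was higher, at 9.86%, 8.31% and 9.01% against 7.27%, 6.29% and 6.78%. Whether the lack of a D gene accounts for any of these shares was not tested. The conserved ends, a cysteine first and a phenylalanine last, were present in 8195 of the 8334 members. Among the 139 others was CASSIVGP (TRBV19 and TRBJ2-7), the largest clonotype of 8 residues in DN T cells, with 41 reads there and 13 in CD8 T cells. Only 1 of its bases matched the J end.

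Clonotypes with a single read were less common among short CDR3s in CD4 and CD8 T cells. A single read was found for 57.6% of short clonotypes among CD4, 63.6% among CD8 and 54.1% among DN T cells, against 61.1%, 68.5% and 55.05%. The odds ratio was 0.865 in CD4 (Fisher's exact test, adjusted p = 0.00237), 0.803 in CD8 (2.25e-11) and 0.962 in DN T cells (0.449). Mean size was 2.95, 1.99 and 4.84 reads, against 3.07, 1.87 and 4.85. The mean of DN T cells rested on few clonotypes, since the 5 largest held 28.4% of its short reads, against 6.98% in CD4 and 4.79% in CD8 T cells. Without the 5 largest of each set the mean of DN T cells was 3.48, against 4.67 in the other lengths. Among the in-frame clonotypes of ranks 1 to 1000 by reads, 66 were short among CD4, 87 among CD8 and 29 among DN T cells. These were 6.6%, 8.7% and 2.9%, against 5.04%, 5.95% and 4.34% of all in-frame clonotypes. Among ranks 1 to 100 the counts were small, at 1, 5 and 7.

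Leaving out the 5 largest short clonotypes of each library lowered the ratio of read shares between DN and CD8 T cells from 0.689 to 0.523 and that between DN and CD4 T cells from 0.895 to 0.696. The ratio between CD8 and CD4 T cells went from 1.30 to 1.33.

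Of the short clonotypes, 28.7% in DN, 16.0% in CD4 and 11.4% in CD8 T cells were found with the same nucleotide CDR3, V and J gene in another library. The other lengths stood at 23.9%, 13.2% and 12.2%. The odds ratio was 1.29 in DN (Fisher's exact test, adjusted p = 2.71e-05), 1.25 in CD4 (5.27e-04) and 0.927 in CD8 T cells (0.114). Matched by amino acid sequence in place of nucleotides it was 1.28 in CD8 T cells, and among clonotypes with at least 2 reads it was 1.07 in DN T cells. The values differed with the bases between the ends. Among clonotypes with 3 or fewer bases between the ends, 40.6% of the short ones in DN, 25.97% in CD4 and 16.9% in CD8 T cells were found again, against 39.5%, 24.6% and 17.9% of the other lengths. Within the same number of bases the Mantel-Haenszel odds ratio, also chosen after the values were seen, was 0.845 in DN (0.748 to 0.955), 0.789 in CD4 (0.688 to 0.905) and 0.711 in CD8 T cells (0.640 to 0.789), so the direction turned in DN and CD4 T cells. The strata differed here too, and with 10 or more bases 18.04% of the short ones in DN, 6.76% in CD4 and 8.70% in CD8 T cells were found again, against 21.7%, 11.9% and 11.8%.

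**Figure D4:**
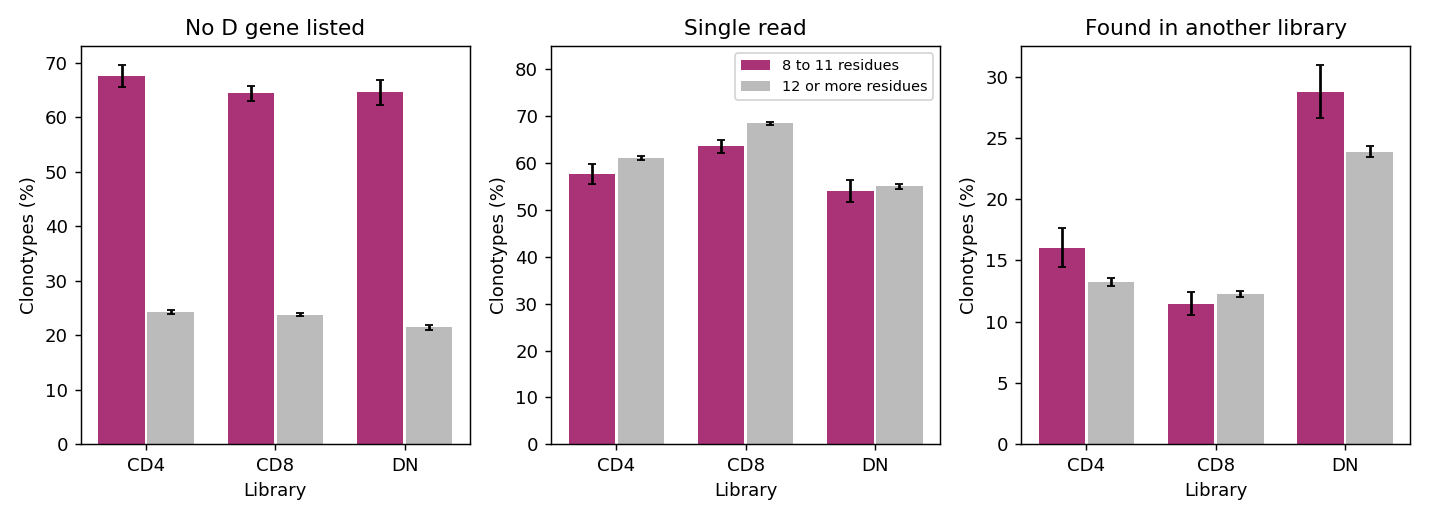
Percentage of clonotypes with no D gene listed (left), with a single read (middle) and found in another library (right), for 8 to 11 residues and for 12 or more in CD4, CD8 and DN T cells, with 95% Wilson intervals of counting error. The gap between the lengths is widest for the lack of D, at 64.3 to 67.6% against 21.4 to 24.3%.

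The distinct short sequences were mostly found in a single library, with 1747 in CD4 only, 4071 in CD8 only and 1181 in DN only, of 7628. So were those of the other lengths, with 34016, 63701 and 27790 of 136000. CD8 and DN T cells shared 296, CD4 and CD8 T cells 153 and CD4 and DN T cells 103, and 77 were found in all 3. As shares of the distinct sequences these were 3.88%, 2.01%, 1.35% and 1.01%, against 3.91%, 1.31%, 1.18% and 1.32% in the other lengths. Those 77 held 3989 of the 8021 short reads of DN T cells, against 851 of 9135 in CD8 and 504 of 6132 in CD4 T cells. In the other lengths 1793 sequences were found in all 3, with 82642 of 176890 reads in DN, 21306 of 135889 in CD8 and 18660 of 120342 in CD4 T cells. Of the short clonotypes of DN T cells, 22.5% were found in CD8 T cells with 68.9% of the reads, against 19.5% and 67.8% in the other lengths.

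Large clonotypes of DN T cells were nearly all present in CD8 T cells, the short ones like the others. Of 44 short ones with 20 or more reads, 42 were found there, at a median of 18.9% of their share in DN T cells (quartiles 10.8 and 23.8%), and 31 in CD4 T cells, where the median was 4.22%. Of the 1408 clonotypes of other lengths, 1330 were found in CD8 and 929 in CD4 T cells, with medians of 17.2% and 4.06%. In the other direction, 13 of the 15 short clonotypes of CD8 T cells with 20 or more reads were found in DN T cells, whereas of the 47 in CD4 T cells, 10 were found in DN and 14 in CD8 T cells. In the other lengths these were 210 of 294, 197 of 683 and 284 of 683. The part of cells or reads carried over between the sorted subsets in these numbers was not tested.

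**Figure D5:**
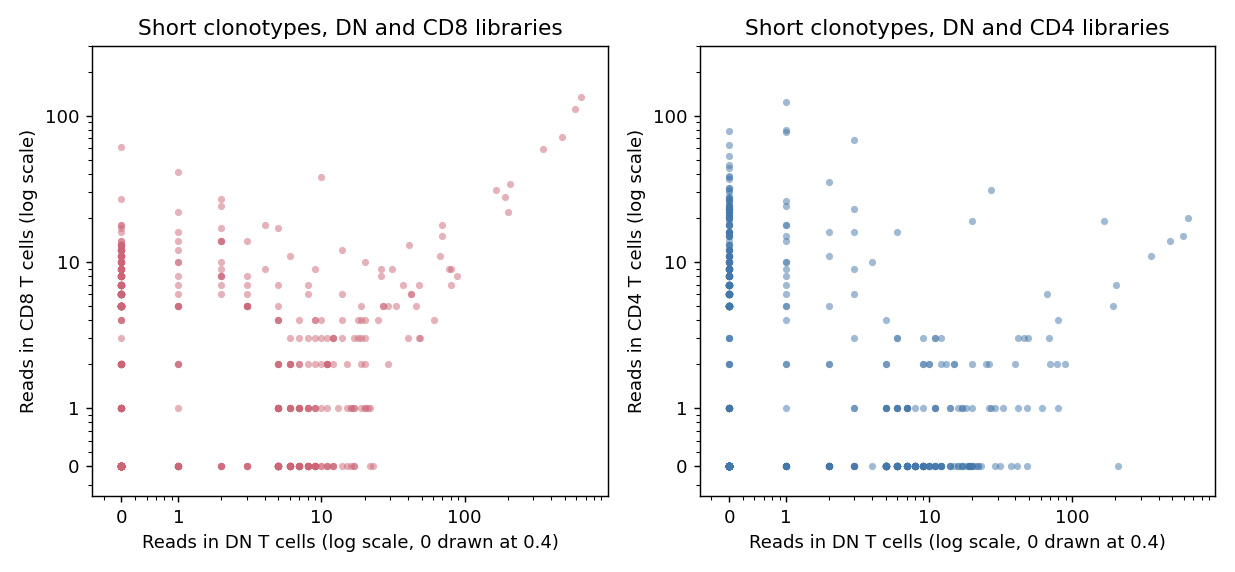
Reads of the short clonotypes that had at least 5 reads in any library, on log scales with 0 drawn at 0.4. DN T cells are set against CD8 T cells (left) and against CD4 T cells (right). Short clonotypes with fewer reads in every library are not drawn. The 4 clonotypes with over 300 reads in DN T cells have 59 to 135 reads in CD8 and 11 to 20 in CD4 T cells.

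Short amino acid sequences were more often encoded by several nucleotide sequences of the same library, in 10.5% of them among CD4, 16.1% among CD8 and 9.15% among DN T cells, against 7.62%, 10.5% and 7.12% of the other lengths. Over the 3 libraries, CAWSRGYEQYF had 14 nucleotide sequences, all with TRBV31, and 84 of its 98 reads were in CD4 T cells. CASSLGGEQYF had 14 with 8 V genes and 24 reads, of which 15 were in CD8 T cells. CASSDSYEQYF had 13 with 7 V genes, and 84 of its 137 reads were in DN T cells. All 3 used TRBJ2-7 alone.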

How the data were processed

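TCR mRNA of 3 sorted subsets was amplified with the Takara SMARTer Mouse TCRα/β kit, and the authors aligned and assembled the reads and exported clonotypes with MiXCR (version, settings and genome build not given in the sources used here). The deposited tables give each clonotype's count of reads, not normalized, and its fraction of the library's reads, which equalled the count over the table's total (133770, 150976 and 194375 in the CD4, CD8 and DN libraries). Only the counts were used. The 84, 101 and 78 clonotypes that were not TRB were left out.

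The members, gene lists and tests were chosen with earlier results of these data known. Clonotypes were compared by two-sided Fisher's exact tests with Benjamini-Hochberg adjustment at 0.05, with p-values set to at least 1e-300, and odds ratios between libraries by a Woolf test over 9 comparisons. V and J genes with at least 20 clonotypes were tested, and genes were ranked by the geometric mean of the share ratio over libraries (V genes with at least 200 clonotypes in each), the 3 highest and 3 lowest being named. Clonotypes described were the 5 largest of each library, the largest of each length and the largest in all 3 libraries (1 of these is not reported here), and others of note were chosen after their values were seen. The V and J ends within the CDR3 were rebuilt per gene from CDR3s of 12 or more residues, base by base. An end was extended while at least 50% of the sequences that matched so far, at least 30 of them, shared the next base. The last bases of an end can thus be carried by fewer than 50% of the gene's sequences. The J end was limited by the segment length in RefSeq (GRCm38.p6). Equal-depth numbers are hypergeometric expectations.

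Alternatives were a minimum of 2 reads, 8 to 10 residues, reads in place of clonotypes, standardised V or J use, merging of clonotypes within 1 mismatch of one with 10 times the reads, and stratified odds ratios. The code was tested on simulated data. A first simulation missed its tolerance for 1 quantity, after which the simulation, not the analysis, was enlarged and its removal of duplicates dropped, and the second met it. Python 3.11.15, NumPy 2.4.6, SciPy 1.17.1, pandas 2.3.3, statsmodels 0.14.6 and matplotlib 3.10.9 were used.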

Additional observations from a re-analysis of the deposited data

Results flagged for a closer look

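The contrast between short CDR3s and the other lengths differed between libraries for 4 of 9 odds ratios compared (Woolf test on the log odds ratios of clonotypes, Benjamini-Hochberg adjusted, 95% intervals in parentheses). The odds ratio for the lack of a D gene in DN was 1.16 times as large as in CD8 T cells (1.02 to 1.31), and that for a single read was 1.20 times as large (1.07 to 1.35). The odds ratio for being found in another library in DN was 1.39 times as large as in CD8 T cells (1.20 to 1.60), where in turn it was 0.740 times as large as in CD4 T cells (0.635 to 0.862). The Woolf test treats the libraries as independent, but shared sequences count in both libraries of a pair, 373 short ones in DN and CD8 T cells. These intervals therefore do not give the uncertainty in full.

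CDR3s of 7 or fewer residues, outside the comparisons, held 264 reads among CD4, 201 among CD8 and 224 among DN T cells, more than the 3 reads that a count of 0 allows. Most were 1 sequence of 6 residues, YAEQFF (TRBV21 and TRBJ2-1), with 218, 104 and 171 reads. It lacks the first cysteine.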

How the results depend on the processing

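No paired analysis was possible because each subset had 1 library, and for the same reason no replicate could be left out. Beyond the values below, no alternative turned the direction of a main result. Standardised gene use and equal depth carry no test, and merging clonotypes leaves read shares as they are by construction. With 8 to 10 residues, the clonotype ratio of DN to CD4 T cells lost the threshold at 0.900 (Fisher's exact test, adjusted p = 0.111), its ratio of reads turned to 1.14, the single-read odds ratio lost the threshold in CD4 (0.831) and CD8 T cells (0.864), as did being found in another library in DN T cells (1.23). Without the 5 largest short clonotypes, the ratio of reads at 8 to 10 residues was 0.683. Standardised V use moved the read ratio of DN to CD8 T cells to 0.718 and of DN to CD4 T cells to 0.949, and standardised J use moved the latter to 0.850.

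For being found in another library, at least 2 reads gave 0.738 in CD8 (now past the threshold) and 1.07 in DN T cells (no longer past it), matching by amino acid turned CD8 T cells to 1.28, and stratifying by reads gave 0.840 (past it). Stratifying by bases between the ends (chosen after the data were seen) gave 0.711 in CD8 and turned CD4 (0.789) and DN T cells (0.845). For the lack of a D gene it gave 1.10 in CD4, where the threshold was lost, and turned CD8 (0.845) and DN T cells (0.965, with an interval that includes 1). With at least 2 reads, V genes with a higher share in short CDR3s numbered 4 among CD4, 5 among CD8 and 3 among DN T cells, and with a lower share 4 in CD8 and 2 in DN T cells. TRBV1 turned to 1.10 in CD4 and TRBV29 to 0.989 in CD8 T cells. With reads in place of clonotypes, 10 V genes in CD4 and 8 in DN T cells were lower, and TRBV1 in CD4 T cells was 1.23.

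Lengths of 8 and 9 residues had few clonotypes, 8 residues at most 90 per library. Clonotypes with a single read were 54.1 to 63.6% of the members, and the program's error correction and D gene settings, not given in the sources used here, bear on these and on the lack of D.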
